A study of Mus musculus with 6 samples.

Results

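The genes studied here were those of the interleukins and their receptors, taken as every gene whose symbol in the platform annotation opens with Il and a digit. Of 19938 genes that had a transcript cluster naming them alone, 76 met this rule. They were 36 ligands, 33 receptor chains, 6 natural antagonists or decoy receptors and 1 antisense transcript. The probes for a transcribed locus form a transcript cluster, and where a gene had several clusters the one with the highest mean stood for it. Il1r1, Il1rl1, Il2rg, which encodes the common gamma chain, and Il11ra1 were not analysed here, and the counts of receptor chains leave them out.

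Whole brains came from male C57BL6 mice aged 7 to 8 weeks. The LPS-treated mice (n = 3) received 1 i.p. injection of lipopolysaccharide (LPS), a component of the bacterial outer membrane, from Escherichia coli (serotype 055:B5) at 4 mg/kg, and the vehicle-treated controls (n = 3) received PBS. Brains were taken 48 hours later, after perfusion with PBS to clear the blood, and each mouse gave 1 GeneChip Mouse Gene 1.0 ST array. All values are log2 expression after robust multichip average (RMA) normalization, and the comparison asks which interleukin genes differed in the brain once inflammation had been triggered in the periphery. The tissue is whole brain, so that a change in the number of cells of a type and a change in the RNA of each cell cannot be told apart. Genes of neurons (6 of 6), astrocytes (5 of 5) and oligodendrocytes (5 of 5) were above background, so that the labelled tissue was borne out by its markers. On the first principal component, with 54.5% of the variance, LPS replicates 1 and 2 lay far from LPS replicate 3 and the controls.

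Interleukins are secreted proteins by which leukocytes and tissue cells signal to each other. The IL-1 family acts through the adaptor MyD88, and several of its ligands are made as precursors that inflammasome caspases cut. Most other interleukins bind paired receptor chains that carry Janus kinases, which phosphorylate STAT transcription factors. The chains are shared: gp130 (Il6st) serves the IL-6 family, IL-10Rβ (Il10rb) serves IL-10 and its relatives, and the common gamma chain serves IL-2, IL-4, IL-7, IL-9, IL-15 and IL-21. In brain, IL-1 is known for fever and sickness behaviour, IL-33 and IL-34 are made by glia and neurons, and IL-10 restrains microglia.

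The stretch of 250 bases before the RefSeq transcription start is shown for 3 genes that the results below turn on, which are Il1a, the gene that passed the test, Il18bp, whose value split the LPS-treated mice, and Il7r, a receptor gene with lower values after LPS. Each is given 5′ to 3′ on the strand of the gene in GRCm38.p6. Capitals mark a match to a motif, and 4 motifs were searched on both strands: the STAT site TTCNNNGAA, the core of the interferon response element (GAAA, any 2 bases, GAAA), the AP-1 site TGANTCA, and the kappa-B site. The Il1a window lies at chr2:129309973-129310222 on the minus strand, the Il18bp window at chr7:102018233-102018482 on the minus strand and the Il7r window at chr15:9529877-9530126 on the minus strand.
Il1a: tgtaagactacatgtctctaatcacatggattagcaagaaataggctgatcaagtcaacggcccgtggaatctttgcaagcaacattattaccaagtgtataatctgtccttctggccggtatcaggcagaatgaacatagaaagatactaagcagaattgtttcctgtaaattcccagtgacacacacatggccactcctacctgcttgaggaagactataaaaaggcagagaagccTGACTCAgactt
Il18bp: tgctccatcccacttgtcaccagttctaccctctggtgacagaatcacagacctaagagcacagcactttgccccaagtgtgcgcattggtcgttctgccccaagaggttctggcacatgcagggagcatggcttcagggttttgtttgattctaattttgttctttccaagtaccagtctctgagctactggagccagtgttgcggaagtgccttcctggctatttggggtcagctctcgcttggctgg
Il7r: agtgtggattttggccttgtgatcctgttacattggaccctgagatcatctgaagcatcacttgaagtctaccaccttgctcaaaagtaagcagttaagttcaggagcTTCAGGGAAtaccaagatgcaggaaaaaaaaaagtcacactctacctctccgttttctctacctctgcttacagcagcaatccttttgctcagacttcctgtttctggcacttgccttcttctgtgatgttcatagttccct
The Il1a window held TGACTCA, an AP-1 match, from 12 to 6 bases before the start. The Il7r window held TTCAGGGAA, a STAT match, from 142 to 134 bases before the start, and the Il18bp window held no match to any of the 4. An AP-1 match was present in 14 of the 59 interleukin genes with a window and in 6.75% of 32851 windows in all. A STAT match was present in 9 of the 59 and in 7.02% of all windows, a kappa-B match in 5 of the 59 and in 7.25%, and an interferon response core in 2 of the 59 (Il19 and Il4) and in 2.98%. A gene was counted if any of its windows held the motif, whereas the percentages are over single windows. The counts of genes and the percentages are therefore not on the same base, and no enrichment can be read from them. A match describes the letters of the window and is no evidence of binding.

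Most interleukin genes gave no signal above background in whole brain. Background was taken from 1196 olfactory and vomeronasal receptor genes, genes with hardly any transcript in brain, whose log2 median was 5.74 and 95th percentile 6.53 (means over the 6 arrays). Of the 76 genes, 22 had a mean over the 6 arrays above that 95th percentile, 28 lay near background, between median and percentile, and 26 lay below the median. Among all genes named alone, 62.0% were above, 19.6% near and 18.4% below. The ligands above background were 6 of 36: Il16, Il17d, Il18, Il27, Il33 and Il34. The receptor chains above background were 15 of 33, among them Il6st (gp130), Il1rap and Il1rapl1 of the IL-1 receptor family, Il4ra and Il13ra1, which form the receptor for IL-13, Il10ra and Il10rb, which form the receptor for IL-10, and Il17ra, which serves several IL-17 cytokines. Of the 6 antagonists and decoys, Il18bp was above background. The genes just above the limit were Il3ra and Il15ra, with means of 6.68 and 6.70, and the gene just under it was Il17rb, with 6.26. A log2 value also depends on the probes of a cluster, so that levels were set against background and not gene against gene.

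After LPS, 1 of the 76 genes was higher in the brain and none was lower. The limma test, with adjustment over 35556 clusters, called 1.32% of the interleukin genes higher against 0.652% of all clusters, and 0 lower against 0.0619%. At an unadjusted p under 0.05, limma had 8 genes higher (10.5%, against 7.69% of all clusters) and 4 lower (5.26%, against 6.58%), and the methods' t-test (the study's unpaired test) passed none after adjustment, where it passed 0.0112% of all clusters as higher and 0.00281% as lower. The LPS and PBS values did not overlap for 13 genes that were higher (17.1%, against 9.73% of all clusters) and for 5 that were lower (6.58%, against 10.3%). The median log2 difference of the 76 genes was 0.02, within a range from -0.44 to 0.84, and that of all genes named alone was -0.02. Without LPS replicate 3, limma had 4 genes higher (Il1a, Il10ra, Il10rb and Il18bp, or 5.26%, against 7.42% of all clusters) and Il17ra lower (1.32%, against 3.24%). With 3 mice per group an exact two-sided permutation test cannot give a p below 0.1.

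**Figure D1:**
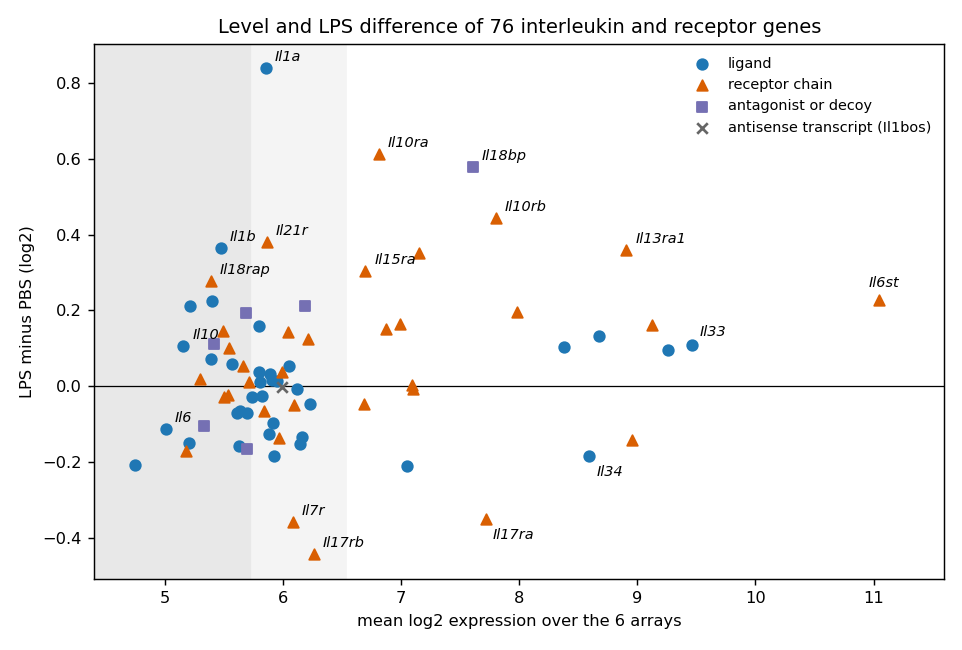
Each of the 76 genes is drawn at its mean log2 expression over the 6 arrays (horizontal) and its log2 difference, LPS minus PBS (vertical), by role. Dark grey covers values below the background median of 5.74 and light grey those up to its 95th percentile of 6.53. Il1a, at 0.84, is the highest point and lies near background, while Il10ra (0.61) and Il10rb (0.44) are among the receptor chains above background.

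Il1a, which encodes the alarmin cytokine IL-1α, was the upregulated gene. Its log2 expression was 5.45, 5.34 and 5.51 in the vehicle-treated controls and 6.06, 6.42 and 6.33 in the LPS-treated mice. Every LPS value was above every PBS value, and the difference was larger than the spread within either group. The difference on the log2 scale (LPS minus PBS, the measure used throughout) was 0.84 ± 0.11 (SE, n = 3 per group), or 1.79-fold (limma adjusted p = 0.0281). All 3 PBS values lay below the background median and all 3 LPS values between the median and the 95th percentile, so that the size of the fold change depends on the background. The call ended without any 1 of the PBS replicates (limma adjusted p from 0.123 to 0.163) and without LPS replicate 2 (adjusted p = 0.0969), and held without LPS replicate 1 or 3. It also ended when each array was centred on its median (log2 difference 0.75, limma adjusted p = 0.0681).

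The other IL-1 family ligands did not pass. Il1b, which encodes the inflammasome product IL-1β, had log2 values of 5.17, 5.36 and 5.34 after vehicle and 5.30, 5.87 and 5.80 after LPS. LPS replicates 2 and 3 were above all controls, replicate 1 was among them, and the log2 difference was 0.36 ± 0.16 (SE, n = 3 per group, limma adjusted p = 0.361). Il1b is below the background median, where a lack of change is hardly informative. Il18 and Il33, in contrast, were well above background, and their groups overlapped. For Il18, whose product induces interferon gamma, the log2 values were 9.32, 9.26 and 9.06 after vehicle and 9.36, 9.28 and 9.28 after LPS, and the 95% confidence interval of the difference ran from -0.12 to 0.31. For Il33, a nuclear alarmin of glia, they were 9.57, 9.13 and 9.52 after vehicle and 9.46, 9.19 and 9.91 after LPS, with an interval from -0.37 to 0.59. The other 4 ligands of the family, Il1f6, Il1f8, Il1f9 and Il1f10, lay near or below background and had log2 differences from -0.15 to 0.21. Il1bos, the transcript antisense to Il1b, also named after its values were seen, had a log2 difference of -0.0017 (limma adjusted p = 0.996).

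Of the 6 antagonists and decoys, none passed, and Il18bp differed most between LPS-treated mice. Il18bp encodes the soluble protein that binds and neutralizes IL-18. Its log2 expression was 7.45, 7.28 and 7.24 after vehicle and 8.20, 8.23 and 7.26 after LPS. LPS replicates 1 and 2 were above all controls, whereas LPS replicate 3 lay among them. The log2 difference was 0.58 ± 0.26 (SE, n = 3 per group, limma adjusted p = 0.369), and it was 0.89 without LPS replicate 3 (adjusted p = 0.00684) and -0.06 with LPS replicate 3 as the lone LPS array (adjusted p = 0.914). These are the same LPS replicates that stood apart on the first principal component. Il1rn, which encodes the IL-1 receptor antagonist, had a log2 difference of 0.21 (limma adjusted p = 0.428), and Il1r2, the decoy receptor for IL-1, had 0.11 (adjusted p = 0.593), with overlapping groups for both.

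**Figure D2:**
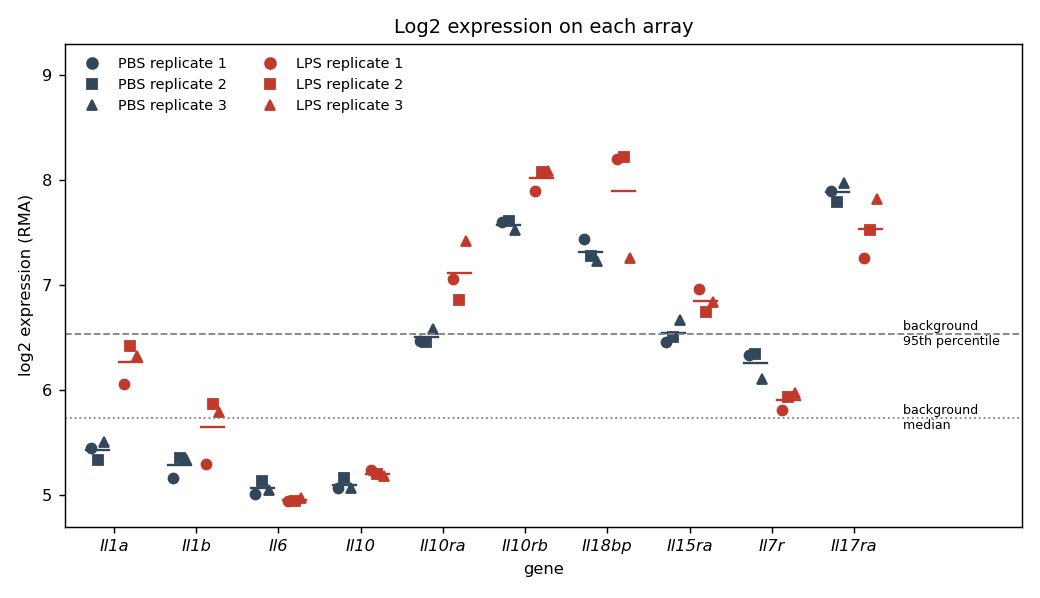
Log2 expression (vertical, RMA) of 10 genes on each of the 6 arrays, with PBS mice in dark blue, LPS mice in red, a marker shape for each replicate number and a bar at each group mean. The dotted and dashed lines are the background median of 5.74 and 95th percentile of 6.53. The Il1a groups are apart but under the dashed line, and for Il18bp LPS replicate 3 (7.26) sits with the controls while the other LPS values are 8.20 and 8.23.

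Among the receptor chains of the IL-1 family, none passed. Il1rap encodes the accessory chain that IL-1, IL-33 and IL-36 receptors share, and Il1rapl1 encodes a related synaptic receptor. Il1rap values were 9.13, 9.03 and 8.91 after vehicle and 8.98, 8.92 and 8.75 after LPS, so that the groups overlapped (log2 difference -0.14, limma adjusted p = 0.538). Il1rapl1 values were 9.07, 8.93 and 9.12 after vehicle and 9.24, 9.19 and 9.18 after LPS, and all LPS values were above all PBS values (0.16, adjusted p = 0.407). Il1rapl2 had a log2 difference of 0.0025, with a confidence interval from -0.27 to 0.28. Of the IL-18 receptor chains, both below the background median, Il18r1 had -0.02 (limma adjusted p = 0.936) and Il18rap, named after its values were seen, had 0.28 (adjusted p = 0.196) with the groups apart.

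The IL-10 receptor family had higher mean values after LPS in 5 of 5 chains, with a median log2 difference of 0.35, and none passed the test. Of all 19938 genes named alone, 9076 had a positive difference. The decoy receptor of the family, Il22ra2, was counted with the antagonists and not among these chains. Named after its values were seen, it lay below the background median and had -0.10 with overlapping groups (limma adjusted p = 0.761). Il10ra encodes the chain that gives the receptor its specificity for IL-10. Its log2 values were 6.47, 6.46 and 6.58 after vehicle and 7.06, 6.87 and 7.43 after LPS. The groups were apart, with the controls around the background percentile and the LPS values above it, and the log2 difference was 0.61 ± 0.14 (SE, n = 3 per group, limma adjusted p = 0.166). Il10rb, the signalling partner, had 7.60, 7.61 and 7.52 after vehicle and 7.90, 8.08 and 8.09 after LPS. These groups were also apart, with a log2 difference of 0.44 ± 0.08 (SE, n = 3 per group, limma adjusted p = 0.104). LPS replicate 3 had the highest value of both genes. Without it the log2 differences were smaller, at 0.46 and 0.41, and both passed (limma adjusted p = 0.0341 for Il10ra and 0.0387 for Il10rb). In that fit 7.42% of all clusters passed as higher. With any other single array left out neither passed (limma adjusted p from 0.148 to 0.441 for Il10ra and from 0.169 to 0.323 for Il10rb).

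Il20rb, a chain of the receptors for IL-19, IL-20 and IL-24, had values of 7.10, 6.77 and 7.05 after vehicle and 7.14, 7.62 and 7.22 after LPS. The groups were narrowly apart in its brightest cluster (log2 difference 0.35, limma adjusted p = 0.358) and overlapped in the other 2 clusters of the gene, at 0.03 and 0.17. Il22ra1, a chain of the IL-22 receptor near background and named after its values were seen, had 0.14 in its brighter and -0.17 in its dimmer cluster (limma adjusted p = 0.440 and 0.495). Il20ra, also named after its values were seen, lay below the background median and had 0.15 with overlapping groups (limma adjusted p = 0.654). The 5 chains also had positive differences when arrays were centred on their median or quantile normalized, and 4 of 5 did with LPS replicates 1 and 2 left out. Among the ligands, Il10 encodes the anti-inflammatory cytokine that Il10ra and Il10rb bind. Il10 values were 5.07, 5.16 and 5.07 after vehicle and 5.24, 5.20 and 5.18 after LPS, all below the background median, and the log2 difference was 0.11 (limma adjusted p = 0.531).

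**Figure D3:**
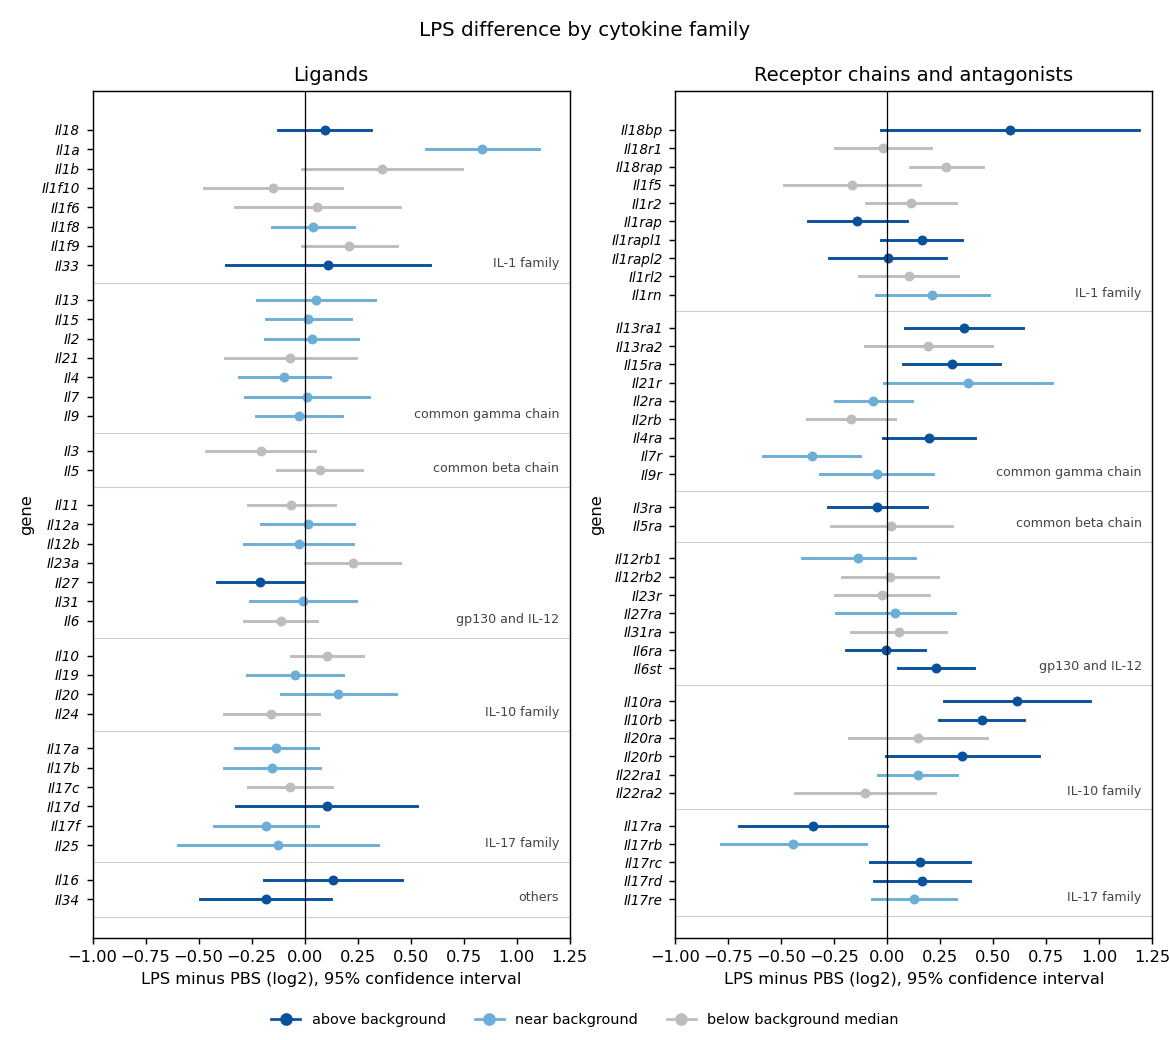
Log2 fold changes (LPS minus PBS, horizontal) with 95% confidence intervals for 36 ligands (left) and for 33 receptor chains with 6 antagonists or decoys (right), by cytokine family and coloured by level against background. The common gamma chain group also holds Il13, Il13ra1 and Il13ra2. Among the ligands, Il1a is furthest from 0. Among the receptor chains, Il10ra and Il10rb have intervals from 0.27 to 0.96 and from 0.24 to 0.64, while Il7r, Il17rb and Il17ra have intervals below 0. The intervals are not adjusted for the number of clusters, and no receptor chain passed the adjusted test.

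Of the genes of the gp130 and IL-12 families, none passed. Il6st encodes gp130, the signal-transducing chain for IL-6, LIF and related cytokines. Its log2 expression was 10.93, 10.88 and 10.99 after vehicle and 11.16, 11.10 and 11.21 after LPS. The groups were apart by a small step, with a log2 difference of 0.23 ± 0.08 (SE, n = 3 per group, limma adjusted p = 0.270). Il6ra, which encodes the chain that binds IL-6, had 7.10, 7.16 and 7.06 after vehicle and 7.09, 7.03 and 7.18 after LPS, so that its groups overlapped fully. The confidence interval of its log2 difference ran from -0.19 to 0.18. Il6 itself had 5.01, 5.14 and 5.05 after vehicle and 4.94, 4.94 and 4.97 after LPS, all below the background median, and its log2 difference was -0.11 (limma adjusted p = 0.509). Il27, a subunit of the cytokine IL-27, was the ligand above background with its groups apart. It had 7.23, 7.11 and 7.14 after vehicle and 7.03, 6.83 and 6.98 after LPS, a log2 difference of -0.21 (limma adjusted p = 0.336). The IL-12 subunits Il12a and Il12b were near background at 0.02 and -0.03 (limma adjusted p = 0.957 and 0.927). Il23a, named after its values were seen, encodes the p19 subunit of IL-23, lay below the background median and had 0.23 (limma adjusted p = 0.346) with the groups apart.

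The receptor chains for IL-13 and for cytokines of the common gamma chain went in both directions and none passed. Il13ra1 encodes a chain of the receptors for IL-13 and IL-4. Its values were 8.73, 8.83 and 8.63 after vehicle and 8.94, 9.01 and 9.31 after LPS, with the groups apart and a log2 difference of 0.36 ± 0.12 (SE, n = 3 per group, limma adjusted p = 0.269). Il15ra, the chain that presents IL-15 to neighbouring cells, had 6.46, 6.51 and 6.67 after vehicle and 6.96, 6.75 and 6.84 after LPS. These groups were apart around the background percentile, with a log2 difference of 0.30 (limma adjusted p = 0.265). Il4ra, the chain that IL-4 and IL-13 receptors share, had 0.20 with overlapping groups (limma adjusted p = 0.387), and Il21r, near background, had 0.38 with overlapping groups (adjusted p = 0.363).

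Il7r encodes the IL-7 receptor alpha chain, a gene known from lymphocytes. Its values were 6.34, 6.35 and 6.11 after vehicle and 5.82, 5.93 and 5.97 after LPS. All LPS values were lower than all controls, within the range called near background, and the log2 difference was -0.36 ± 0.10 (SE, n = 3 per group, limma adjusted p = 0.210). Il2ra, Il2rb and Il9r, also of lymphocytes, lay near or below background and had log2 differences from -0.17 to -0.05 with overlapping groups. The ligands of the common gamma chain (Il2, Il4, Il7, Il9, Il15 and Il21) lay near or below background, as did Il13. The log2 differences of these 7 genes ran from -0.10 to 0.05. Il3ra, a chain of the IL-3 receptor that pairs with the common beta chain, had -0.05 (limma adjusted p = 0.853).

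In the IL-17 family 5 of 6 ligands had lower mean values after LPS, and none passed. These 5 lay near or below background with overlapping groups. Of all 19938 genes named alone, 10862 had a negative difference. Il17d, the ligand of the family above background, had 8.39, 8.64 and 7.94 after vehicle and 8.33, 8.39 and 8.56 after LPS. The LPS values were inside the range of the controls, and the log2 difference was 0.10. Il17ra, the receptor chain that several IL-17 cytokines need, had 7.89, 7.80 and 7.98 after vehicle and 7.26, 7.53 and 7.83 after LPS. LPS replicate 3 lay among the controls and the other LPS values below them, with a log2 difference of -0.35 ± 0.15 (SE, n = 3 per group, limma adjusted p = 0.347). Without LPS replicate 3 it was -0.49 and passed (adjusted p = 0.0409), and without LPS replicate 1 it was -0.21 (adjusted p = 0.637). Il17rb, the IL-25 receptor chain, named after its values were seen, had 6.43, 6.76 and 6.26 after vehicle and 6.18, 5.90 and 6.04 after LPS. These groups were apart, near background, with a log2 difference of -0.44 (limma adjusted p = 0.270). Il17rc and Il17rd, further chains of the family, had log2 differences of 0.15 and 0.16 (limma adjusted p = 0.513 and 0.467). The groups of Il17rd were apart in this brighter cluster. In its dimmer cluster, near background, they overlapped, with a log2 difference of 0.09 (limma adjusted p = 0.767).

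Outside these families, Il16 encodes a precursor that is cut to a lymphocyte chemoattractant, and Il34 encodes a neuronal ligand of the CSF-1 receptor on microglia. Il16 had 8.66, 8.33 and 8.82 after vehicle and 8.69, 8.86 and 8.67 after LPS. Il34 had 8.50, 8.79 and 8.77 after vehicle and 8.46, 8.34 and 8.71 after LPS. Both pairs of groups overlapped, with log2 differences of 0.13 and -0.18 (limma adjusted p = 0.686 and 0.544).

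Set side by side, the receptor chains above background had a median log2 difference of 0.16, with 11 of 15 positive and 8 of 15 with higher, non-overlapping LPS values. Il10ra is among the 15 through its LPS arrays: by the PBS arrays alone, whose background percentile was 6.52, it was left out, and the other 14 chains had a median of 0.16, with 10 positive and 7 apart and higher. The 6 ligands above background had a median of 0.10, with 4 positive and none apart and higher, and the median over all genes above background was -0.02, with 44.3% of 12355 positive and 11.2% apart and higher. With arrays centred on their median, which moved the median of all clusters to -0.09, 30 of the 76 genes were positive in place of 43, 10 of 36 ligands in place of 18, and 10 of 15 receptor chains above background in place of 11. With quantile normalization the same counts were 36, 14 and 10. The median of the receptor chains above background was 0.07 after centring and 0.14 after quantile normalization, and that of the 36 ligands, 0.0027 as deposited, was -0.09 and -0.04.

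**Figure D4:**
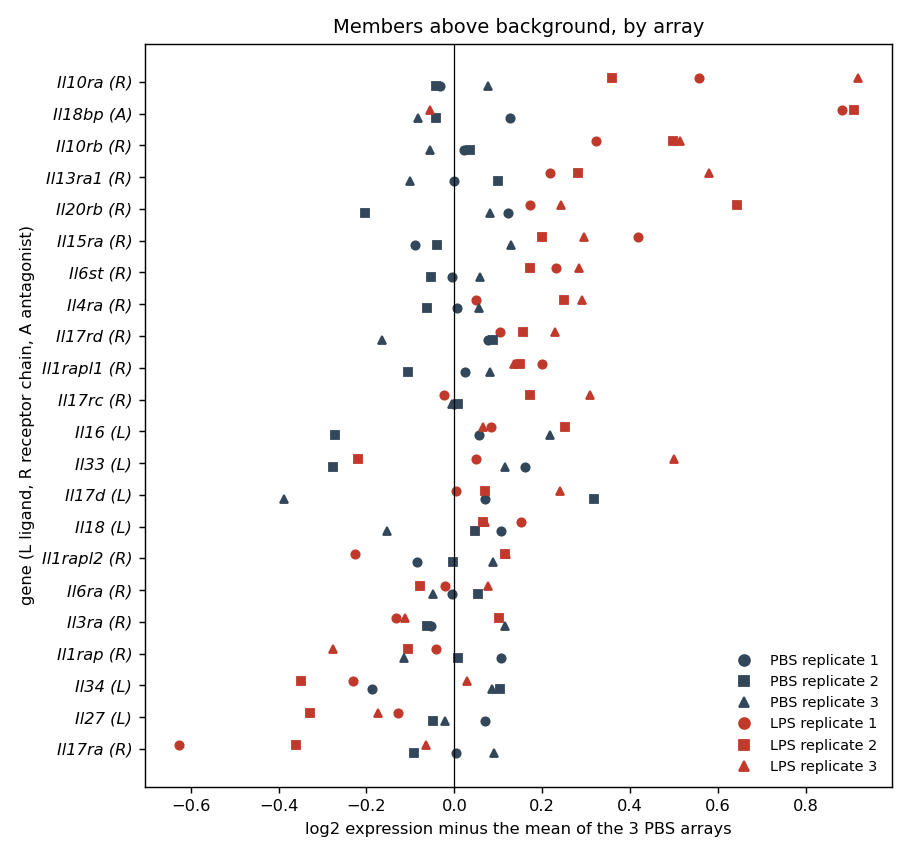
For each of the 22 genes above background, the log2 expression of each array minus the mean of the 3 PBS arrays (horizontal), with PBS in dark blue, LPS in red and a marker shape for each replicate number. Il10ra, Il10rb, Il13ra1, Il20rb, Il15ra, Il6st, Il17rd and Il1rapl1 have all LPS arrays to the right of all PBS arrays, Il27 has them all to the left, and Il18bp and Il17ra have LPS replicate 3 with the controls.

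The genes that work with interleukin receptors mostly did not pass. Of 20 measured partners that share their receptors, 1 was higher and none was lower (median log2 difference 0.09), against 0.652% and 0.0619% of all clusters. This was Csf3r, which encodes the G-CSF receptor of granulocytes, with 6.00, 6.07 and 5.97 after vehicle and 6.70, 6.87 and 6.66 after LPS (0.73 ± 0.09, SE, n = 3 per group, limma adjusted p = 0.0188). Csf2rb, the common beta chain of the IL-3, IL-5 and GM-CSF receptors, had 0.68 with the groups apart (limma adjusted p = 0.114). Csf2rb2, a close copy of Csf2rb whose signal may be shared with it, had 0.73 (adjusted p = 0.177). Csf1, a ligand of the receptor that IL-34 also binds, had 0.42 (limma adjusted p = 0.108), and Osmr, the oncostatin M receptor that pairs with gp130, had 0.60 (adjusted p = 0.204), both with the groups apart.

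Of 19 measured Janus kinases, STATs and feedback genes, 1 was higher and none was lower (median 0.04), against 0.652% and 0.0619% of all clusters. This was Stat2, a transcription factor of interferon signalling, with 8.17, 8.15 and 8.20 after vehicle and 8.90, 8.90 and 8.77 after LPS (log2 difference 0.69, limma adjusted p = 0.0141). Socs3, a feedback inhibitor that IL-6 and IL-10 induce, had -0.14 (limma adjusted p = 0.645), and Stat3, the main STAT of both cytokines, had 0.18 (adjusted p = 0.411). Of 14 measured IL-1, IL-18 and IL-17 adaptor and processing genes, 1 was higher and none was lower (median 0.16), against the same shares. This was Pycard, which encodes the inflammasome adaptor ASC, with 6.53, 5.98 and 6.18 after vehicle and 7.20, 7.75 and 7.58 after LPS (1.28 ± 0.18, SE, n = 3 per group, limma adjusted p = 0.0394). Casp1, which cuts IL-1β and IL-18, and Nlrp3, an inflammasome sensor, had 0.18 and 0.14 (limma adjusted p = 0.649 and 0.397) at or below background. Myd88, the adaptor of IL-1 and Toll-like receptors, had 7.62, 7.60 and 6.58 after vehicle and 8.15, 8.13 and 6.68 after LPS, with replicate 3 lowest in both groups (limma adjusted p = 0.733). The calls of Csf3r, Stat2 and Pycard each held without LPS replicate 3 and ended when any other single array was dropped (limma adjusted p up to 0.109, 0.0950 and 0.183).

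Markers of other cell types moved beside these values. Of 8 endothelial genes 7 were higher after LPS, against 0.652% of all clusters. The log2 of the summed level of the 8 ran from 10.70 to 10.85 after vehicle and from 11.67 to 11.80 after LPS. The calls of Cldn5, Cdh5, Tek, Emcn and Vwf held with each array dropped in turn. Those of Pecam1 and of Kdr, which lay near background, ended in some of these fits (limma adjusted p up to 0.115 and 0.0634). Of 9 microglia and macrophage genes 2 were higher, Itgam (1.77, limma adjusted p = 0.00317) and Ptprc (0.89, adjusted p = 0.0155), against the same 0.652%. The log2 of the summed level of the 9 ran from 11.30 to 11.50 after vehicle and from 11.71 to 11.96 after LPS. The call of Itgam held with each array dropped in turn, and that of Ptprc ended in 4 of 6 such fits (limma adjusted p up to 0.0950). The other 7 genes of the list did not pass. Their differences ran from 0.01 for P2ry12 to 0.47 for Cx3cr1 (limma adjusted p = 0.988 and 0.216). The groups were apart for Cx3cr1 and for Csf1r (0.30), and overlapped for P2ry12, Tmem119, Aif1, Trem2 and C1qa. The part of endothelial and myeloid cells in the values of Il1a, Il10ra, Il10rb, Il13ra1 and Il6st was not tested. Of 12 T and NK cell genes and 5 B cell genes none passed. Differences were negative for 6 of the 12 (median -0.02) and for 3 of the 5 (median -0.06). Cd3d, Cd3g, Ms4a1 and Cd79a lay below the background median, with differences of -0.13, -0.06, -0.09 and -0.17 and overlapping groups. Gzma (0.57, limma adjusted p = 0.0768), Cd3e (0.26, adjusted p = 0.296) and Cd79b (0.21, adjusted p = 0.320) were near background with the LPS values above all PBS values, and Gzma passed without LPS replicate 3 (adjusted p = 0.0165). Of 9 neutrophil genes 1 was higher, the Csf3r described above, against 0.652% of all clusters. S100a8 and S100a9 had 0.01 and -0.14 near background. Cxcr2, below the background median, had 0.29 with the groups apart (limma adjusted p = 0.219), and Ngp had -0.36 with overlapping groups (adjusted p = 0.482). None of 4 blood monocyte and 6 mast cell genes passed. The monocyte gene F13a1 had 0.43 with the groups apart (limma adjusted p = 0.146), whereas Ccr2, Plac8 and Chil3 had -0.29, 0.18 and 0.04 with overlapping groups. The summed log2 level of T and NK cell genes ran from 9.40 to 9.47 after vehicle and from 9.46 to 9.53 after LPS, and that of B cell genes from 7.89 to 8.03 and from 7.94 to 8.13. None of 5 oligodendrocyte genes passed, and all 5 had negative differences (median -0.14). Their summed log2 level ran from 13.73 to 13.87 after vehicle and from 13.59 to 13.69 after LPS. None of 5 astrocyte and 6 neuron genes passed (medians 0.16 and -0.05). The astrocyte gene Gfap had 0.56 with the groups apart (limma adjusted p = 0.130).

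**Figure D5:**
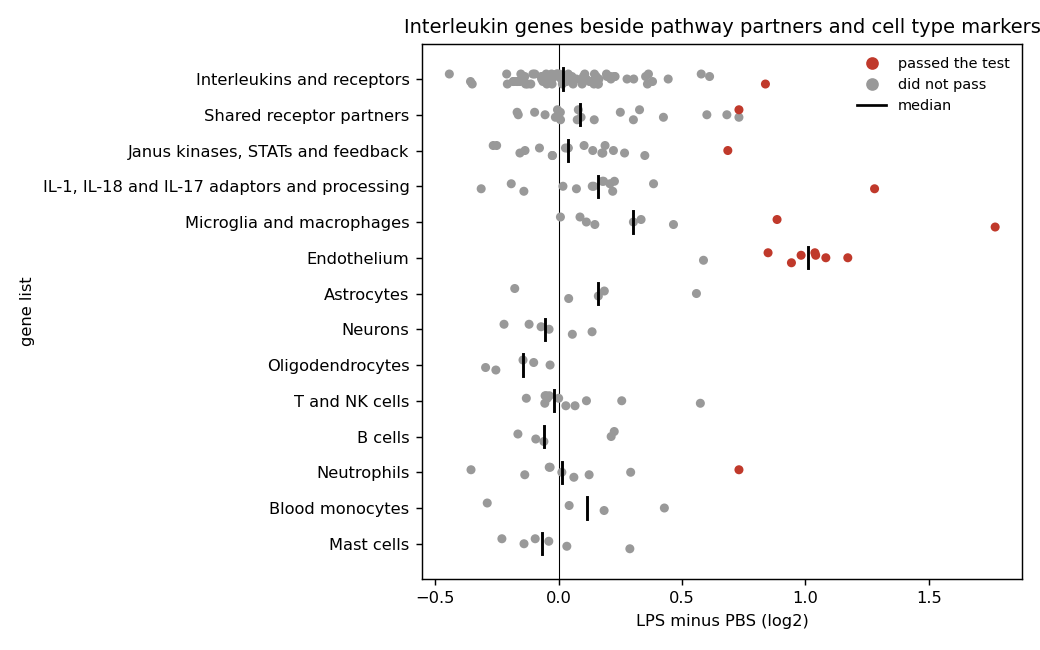
Log2 fold changes (LPS minus PBS, horizontal) of the 76 interleukin genes and of the genes in 3 pathway lists and 10 cell type marker lists (rows), 1 point per gene, with a bar at each median. Red points passed the limma test, 1 among the interleukin genes and 7 among 8 endothelial genes, whose median is 1.01 against 0.02 for the interleukin genes.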

How the data were processed

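Brain RNA from 3 mice given LPS and 3 given PBS was measured on Affymetrix Mouse Gene 1.0 ST arrays, 1 per mouse. The log2 expression values were used as deposited by the authors, who normalized them by RMA, which subtracts background, puts arrays on a common scale and combines probes into a value per cluster. The study used RMA in 2 programs, and the sources used here do not say which of them gave these values. Of 35556 clusters, 21789 name 1 gene, 1621 several and 12146 none, and 3 clusters that share an interleukin name with another gene were tested but not named. LPS was compared with PBS in a two-sided moderated test (limma 3.58.1 under R 4.3.3, functions lmFit and eBayes). P-values were adjusted over all clusters by the Benjamini-Hochberg method, and 0.05 was the threshold. The methods' t-test is the study's unpaired test on the same values. Depth does not apply to arrays, and their number limits the precision. The procedure was tested on simulated data.

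The 76 genes and all lists were chosen with earlier results of these data known. The text names each gene that passed the test, each above background and a fixed set of ligands and receptor chains, and says where a gene was named after its values were seen. Alternatives were other tests, array weights, normalizations, a filter on low clusters, an offset, the replicate block, other thresholds, the mean of clusters and each array left out. Promoter sequences and starts are those of RefSeq for GRCm38.p6, with a window for 59 of the 76 genes.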

Additional observations from a re-analysis of the deposited data

How the results depend on the processing

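The call of 1 interleukin gene, the ligand Il1a, held under eBayes with a trend, robust eBayes, quantile normalization, an offset of 32 on the linear scale, averaged clusters per gene and an adjusted p under 0.1. The genes higher, and the ligands among them, numbered 0 with the methods' t-test, with arrays centred on their median, with the 40% of clusters of lowest mean left out (which drops Il1a itself), with the replicate block, and without both LPS replicates 1 and 2. That last setting was chosen after seeing the data, and it takes the spread of the lone LPS array to be that of the controls. With array weights, 10 genes were higher and 4 lower, including 3 ligands and 6 receptor chains higher, while 8323 clusters were called in place of 254. Leaving out each array in turn gave from 0 to 4 genes higher, 0 to 1 lower, 0 to 1 ligands, 0 to 2 receptor chains and from 74 to 3792 clusters called. The clusters called numbered 5 with the methods' t-test, 151 after centring, 80 with the replicate block, 83 with LPS replicates 1 and 2 left out and 420 at an adjusted p under 0.1. The 22 genes above background stayed within 1.5 times that count under each percentile and choice of arrays tried. Of the 37 genes named by the fixed rule, 14 had a sign change under some alternative, with neither value called in that alternative or in the main comparison. Of these, Il18bp was called without LPS replicate 3 and with array weights. With array weights the log2 differences were -0.036 for Il15, -0.0043 for Il17rc, 0.045 for Il18r1, -0.19 for Il1rapl2 and 0.025 for Il9r. With quantile normalization they were -0.020 for Il12a, -0.016 for Il15 and -0.093 for Il1rapl2, and with centring -0.076, -0.074 and -0.089 for the same genes. With LPS replicates 1 and 2 left out they were -0.056 for Il18bp, 0.028 for Il34 and 0.077 for Il6ra. Leaving out each array in turn gave ranges through 0 for Il12a (-0.068 to 0.064), Il12b (-0.088 to 0.073), Il15 (-0.022 to 0.069), Il16 (-0.0038 to 0.24), Il17d (-0.090 to 0.26), Il18r1 (-0.064 to 0.050), Il1rapl2 (-0.055 to 0.12), Il33 (-0.085 to 0.27), Il3ra (-0.12 to 0.0096), Il6ra (-0.050 to 0.028) and Il9r (-0.14 to 0.021). The labels give replicate numbers and do not say whether arrays of the same number were paired. Deviations of same-numbered arrays from their group means correlated at 0.09, -0.05 and 0.10. PBS replicate 1 correlated best with LPS replicate 2, and PBS replicate 3 with LPS replicate 3. Deviations within a group are tied to each other, so these correlations cannot decide whether a number stands for a pairing. Under the replicate block Il1a had an adjusted p of 0.112 in limma. Ligands at or below background, such as Il1b, Il6 and Il10, could have changed without a change in these values. Causes of these shifts were not tested.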
